A study of Rattus norvegicus with 3 samples.

Results

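Antioxidant and glutathione enzymes remove superoxide, peroxides and reactive electrophiles and keep protein thiols reduced. They were described here in motor cortex of 3 male Sprague-Dawley rats, numbered 12, 24-4 and 33. Every rat had cerebral ischemia and reperfusion, in which blood flow to the brain is interrupted and restored, followed by electroacupuncture at the GB20 (Fengchi) point. The labels give a time of 8 weeks without saying what it is counted from. All rats form 1 group, so the values below are levels and their spread between treated animals, and no effect of ischemia or of electroacupuncture was tested. Genes were chosen by name: glutathione peroxidases, peroxiredoxins, everything beginning with Txn except Txnip, superoxide dismutases, catalase, glutathione transferases, glutathione-making enzymes, glutaredoxins, methionine sulfoxide reductases, Park7, Srxn1, Nqo1, Nqo2 and the regulators Nfe2l1, Nfe2l2 and Keap1. This gave 80 of the 30957 rows, with 78 distinct names, since Gstm6l and Gsto2 each stand in 2 rows.

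Superoxide dismutases turn superoxide into hydrogen peroxide. Catalase, glutathione peroxidases and peroxiredoxins then remove the peroxide, drawing electrons from glutathione or thioredoxin, which reductases recharge with NADPH. Glutathione transferases join glutathione to electrophiles, and the transcription factor NRF2 (Nfe2l2), held in check by KEAP1, switches on many of these genes in oxidative stress. In brain, astrocytes are known to be rich in glutathione and supply its precursors to neurons.

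FPKM, the unit of all levels here, counts fragments for each kilobase of a gene in every 1000000 of the library, and spread is given on the log2(FPKM + 1) scale, which understates differences of low genes. The libraries held an estimated 13000000 to 17230000 fragments. At an FPKM of 1, a locus 1 kb long thus rests on 13 to 17.2 fragments, with exact 95% Poisson intervals reaching from 6.92 to 27.5, which cover counting error only. The share of mitochondrial transcripts in the summed FPKM was 26.6%, 14.4% and 20.9% in rats 12, 24-4 and 33. In bulk tissue, fewer cells of a type and less RNA per cell cannot be told apart. Glutamatergic neuron markers of cortex, such as Slc17a7 (421, 709 and 367 FPKM in rats 12, 24-4 and 33) and Tbr1 (43.1, 36.9 and 11.7), were present in every rat. Values of single rats follow the order 12, 24-4 and 33 throughout, and ± is the SD over the 3 rats.

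Of the 80 rows, 64 had a mean FPKM of at least 1 and entered the test of spread, which is 80% of them, while 44.4% of all rows did. Another 6 lay above 0 with a mean under 1, and 10 were listed at 0 in every rat. A value of 0 can be a failed estimate in these files, so such rows are described only as listed at 0. Either side of the limit were the Gsto2 row on chromosome 1 that overlaps Gsto1, with a mean of 0.877, and Mgst2, with 1.29. The tested genes had a median level of 4.53 on the log2(FPKM + 1) scale, against 3.47 over all 13754 genes tested, and 52 of the 64 lay above the median FPKM of 10.5 of all genes tested. A total of 14 exceeded 55.1 FPKM, the value at the 90th percentile. Together the 80 rows took 0.594 ± 0.101% of all FPKM, and the 10 highest made up 53.1% of that.

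**Figure D1:**
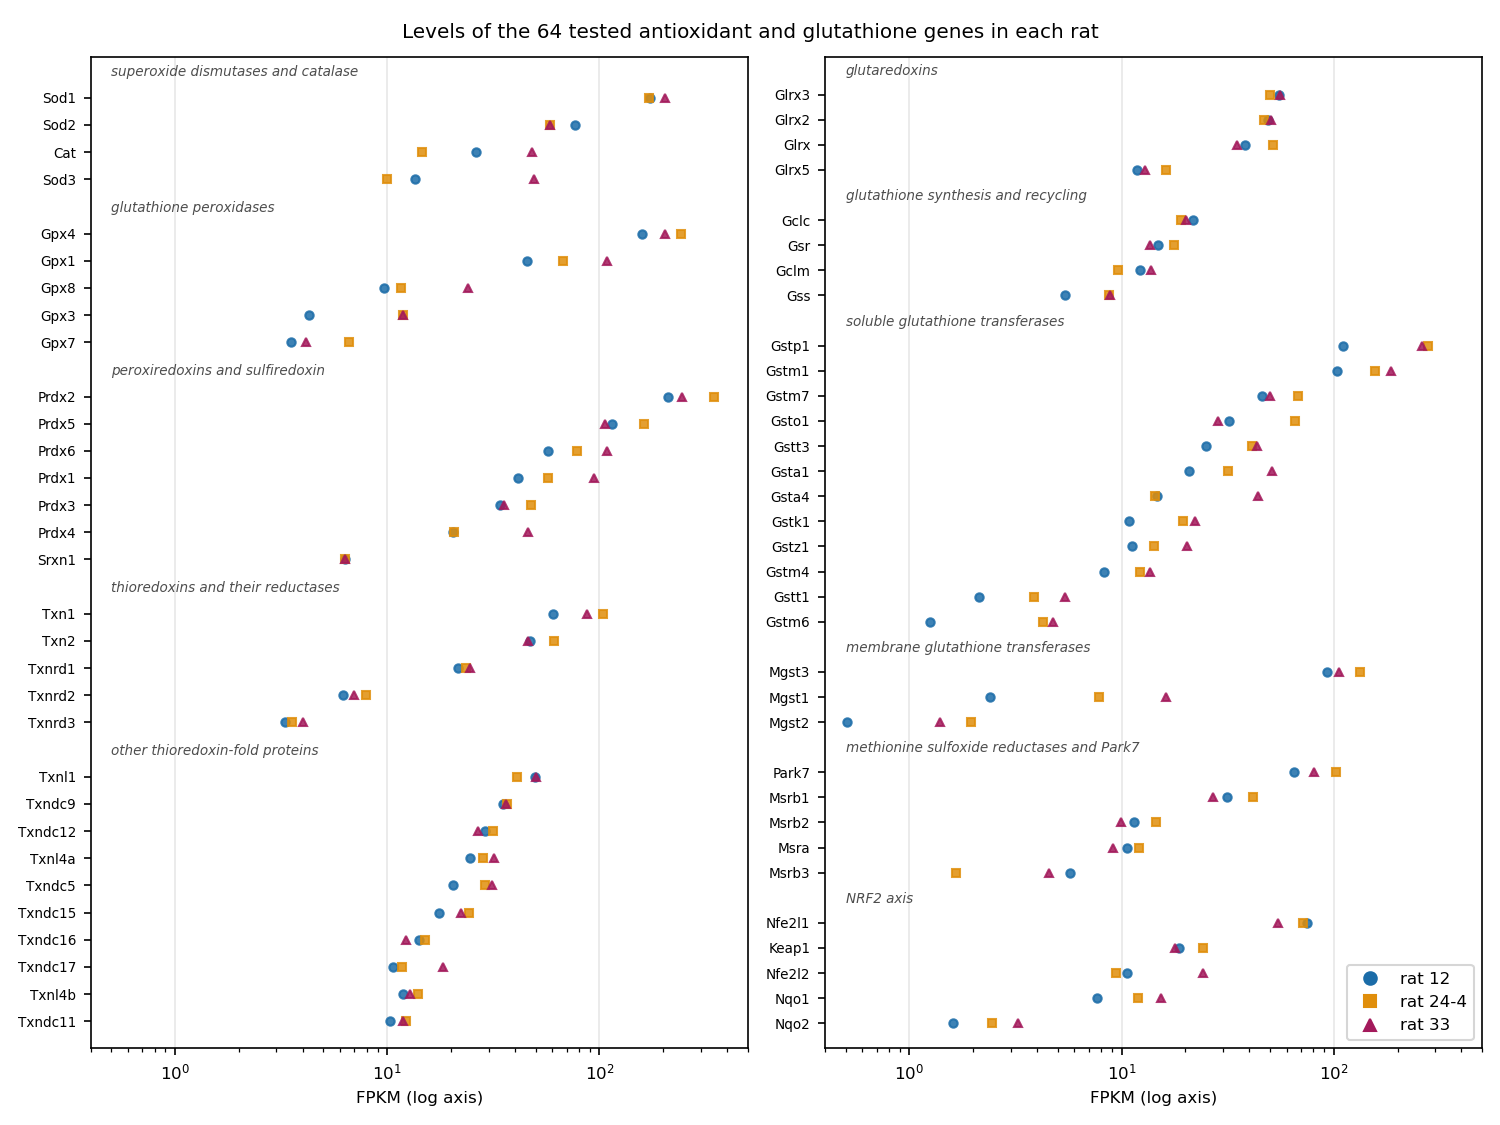
FPKM on a log axis for each of the 64 tested genes, with 1 point per rat (circle rat 12, square rat 24-4, triangle rat 33), grouped by role and ordered by mean. Prdx2, Gstp1, Gpx4 and Sod1 lead their groups with means of 267, 216, 202 and 183 FPKM, and the points of Srxn1 fall on each other while those of Mgst1 are spread 6.74-fold.

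Among the enzymes that handle superoxide, the cytosolic Sod1 was the most abundant, and the secreted Sod3 varied most between animals. Sod1 (chromosome 11, 30363280 to 30368862, build Rnor_6.0 here and below) had 172, 172 and 204 FPKM. The mitochondrial enzyme gene Sod2 had 76.9, 58.5 and 58.6. Sod1 exceeded Sod2 in every rat, by 1.49 ± 0.32 on the log2(FPKM + 1) scale. Sod3, whose product binds to the extracellular matrix, had 13.5, 9.99 and 49.2, so that rat 33 stood 4.92-fold above rat 24-4. Catalase (Cat), a peroxisomal enzyme that splits hydrogen peroxide without a thiol, had 26.2, 14.7 and 48.0 with the same order of rats. Neither gene passed the test of spread (limma adjusted p = 0.442 for Sod3 and 0.760 for Cat), although their unadjusted p-values were 0.00466 and 0.0320.

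Among the glutathione peroxidases, Gpx4 led in all rats and was followed by Gpx1. Gpx4 reduces lipid hydroperoxides inside membranes and is known for restraining ferroptosis. It had 159, 243 and 203 FPKM (chromosome 7, 12516357 to 12519154). Gpx1, the cytosolic enzyme for hydrogen peroxide, had 45.7, 67.4 and 108. Gpx4 minus Gpx1 was 1.78, 1.84 and 0.90 on the log2 scale, so the gap was smallest in rat 33. The peroxidases of the endoplasmic reticulum, Gpx8 and Gpx7, were lower, with 9.63, 11.6 and 24.1 for Gpx8 and 3.52, 6.57 and 4.15 for Gpx7. The secreted plasma enzyme gene Gpx3 had 4.26, 11.9 and 11.8, lowest in rat 12. Gpx2, known from the gut epithelium, had 0.0647, 0.633 and 0.305, and Gpx5 and Gpx6 on chromosome 17, known from epididymis and olfactory tissue, were listed at 0. All 5 tested peroxidases were lowest in rat 12, against 37.9% of all genes tested, and also with both other scalings, where 27.0% and 31.0% of all genes tested were.

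Peroxiredoxins carried more transcript than the glutathione peroxidases, with summed FPKM (Srxn1 included) of 484, 719 and 641 against 222, 341 and 352. Prdx2, a cytosolic peroxiredoxin known from neurons and red blood cells, had 211, 346 and 244 FPKM and had the highest mean of all 80 rows (chromosome 19, 26084903 to 26090094). Prdx5, found in mitochondria, peroxisomes and cytosol, had 115, 163 and 106. Both were highest in rat 24-4, as was the mitochondrial Prdx3 with 34.1, 47.5 and 35.5. Prdx1, Prdx4 and Prdx6 were highest in rat 33. The cytosolic Prdx1 had 41.1, 57.0 and 94.2, and Prdx6, which uses glutathione and also reduces phospholipid peroxides, had 57.2, 78.2 and 109. Prdx4, which works in the endoplasmic reticulum, had 20.5, 20.6 and 46.1. The order of Prdx3 and Prdx4 therefore turned between animals, with Prdx3 minus Prdx4 at 0.71, 1.16 and -0.37.

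Sulfiredoxin (Srxn1) repairs peroxiredoxins that have been overoxidised and is a known target of NRF2. It had 6.32, 6.33 and 6.29 FPKM, the smallest SD of the 64 tested genes at 0.0038 on the log2(FPKM + 1) scale. This closeness belonged to the deposited scaling. Rescaled without the mitochondrial genome, Srxn1 had 8.61, 7.40 and 7.95, a range of 1.16-fold. Its substrates Prdx1 and Prdx2 had ranges of 2.29-fold and 1.64-fold in the deposited values.

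In the thioredoxin system the highest rat was 1.14-fold to 1.72-fold above the lowest. Txn1, the cytosolic thioredoxin, had 60.4, 104 and 87.8 FPKM, and Txn2, its mitochondrial counterpart, had 47.1, 60.9 and 46.2. Reductases were lower than their substrates. Txnrd1, the cytosolic reductase, had 21.6, 23.5 and 24.5, the most even of these genes. The mitochondrial Txnrd2 had 6.16, 7.92 and 7.00, and Txnrd3, known from testis, had 3.28, 3.55 and 4.02. The sources used here do not say whether counting used the strand, so values of rows that overlap another row on the other strand, Txnrd2 among them, are uncertain. Txnip, an inhibitor of thioredoxin that the naming rule leaves out, had 26.5, 43.1 and 80.2 (limma unadjusted p = 0.0488, adjusted p = 0.829).

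Proteins with a thioredoxin fold but other jobs made up 12 rows, and 10 of them were tested. Txnl1, a thioredoxin-like protein that associates with the proteasome, led with 49.8, 40.8 and 50.1 FPKM. Txndc9, a regulator of chaperonin-assisted folding, had 35.0, 36.9 and 36.4 and the smallest spread after Srxn1. Txnl4a, a component of the spliceosome rather than an antioxidant, had 24.5, 28.1 and 31.9, though its row overlaps RGD1560212 on the same strand. At the low end Txndc11 had 10.3, 12.3 and 11.8, in a row that overlaps Snn (82.4 FPKM) on the other strand. The highest rat was 1.05-fold to 1.73-fold above the lowest across the 10 genes. Txndc2 (0, 0.0677 and 0) and Txndc8 (listed at 0) are known from sperm.

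Glutaredoxins use glutathione to reduce protein disulfides. Glrx3, which takes part in iron handling, had 55.1, 50.1 and 55.7 FPKM, and Glrx2 had 48.8, 46.9 and 50.9. These were among the 5 tested genes with the smallest SD. Glrx3 exceeded Glrx2 in each rat by only 0.13 ± 0.04 on the log2 scale. The cytosolic Glrx had 38.4, 52.0 and 35.2, and Glrx5, needed for mitochondrial iron-sulfur clusters, had 11.8, 16.2 and 12.9.

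The genes that make and recycle glutathione were present at moderate levels, with the highest rat 1.15-fold (Gclc) to 1.62-fold (Gss) above the lowest. Gclc, the catalytic subunit of the rate-limiting ligase, had 21.8, 19.0 and 20.1 FPKM (chromosome 8, 85059051 to 85097468), and its modifier subunit gene Gclm had 12.2, 9.63 and 13.8. Gclc exceeded Gclm by 0.74 ± 0.21. Gss, which completes the tripeptide, had 5.43, 8.71 and 8.81, and Gsr, which restores oxidised glutathione, had 14.9, 17.6 and 13.6. Summed over these 4 genes the FPKM was 55.2 ± 1.02 in the deposited scaling. Gsr lay below its thioredoxin counterpart Txnrd1 in all rats, with a difference of -0.57 ± 0.21.

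The 12 tested of 23 rows of soluble glutathione transferases ranged from a mean of 3.43 FPKM (Gstm6) to 216 FPKM (Gstp1), and most of the 12 were lowest in rat 12. The pi class gene Gstp1 had 110, 277 and 262 FPKM (chromosome 1, 219291679 to 219294147), so rats 24-4 and 33 stood apart from rat 12. Gstm1 of the mu class had 103, 156 and 186, and Gstm7 had 46.1, 67.8 and 50.1. Gstp1 and Gstm1 were close in rat 12, where they differed by 0.09 on the log2 scale, and further apart in the others, with 0.82 and 0.49. Of the 12 tested genes, 10 were lowest in rat 12, against 37.9% of all genes tested, and 9 were highest in rat 33, against 42.0%. Rescaled without the mitochondrial genome, which lets a further gene reach the limit, 10 of 13 were lowest in rat 12 (27.0% of all genes tested) and 11 highest in rat 33 (41.9%).

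Within the alpha class, Gsta4, which conjugates the lipid peroxidation product 4-hydroxynonenal, had 14.7, 14.3 and 43.8 FPKM (limma unadjusted p = 0.0213, adjusted p = 0.696). Gsta1 had 20.8, 31.6 and 50.9, and its row overlaps that of Gsta3 (0.127, 0.113 and 0.650) on the other strand. An opposite pattern was seen in Gsto1 of the omega class, which had 31.9, 65.7 and 28.6. Gsta4 minus Gsto1 was -1.07, -2.12 and 0.60, and its sign was not shared by the rats. The theta genes Gstt3 (36.6 ± 10.1 on average) and Gstt1 (2.13, 3.85 and 5.43) kept the order of rat 33, rat 24-4 and rat 12, which was also that of Gstk1 of peroxisomes and mitochondria (10.8, 19.5 and 22.1) and of Gstz1 of tyrosine breakdown (11.2, 14.3 and 20.3).

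Several transferase rows lie in tandem and share sequence, which makes their split uncertain. Of 8 mu rows within 154 kb on chromosome 2 (210685197 to 210839295), 4 were tested. The locus of Gstm7 spans those of Gstm6 (1.25, 4.29 and 4.75 FPKM), Gstm3 (0.0991, 0.0882 and 0.117) and 1 row of Gstm6l on the same strand. Gstm5 was listed at 0, as was the other Gstm6l row. Of 4 theta rows within 64.7 kb on chromosome 20, Gstt2 and Gstt4 were listed at 0, and on chromosome 8 Gsta2 and Gsta5 were listed at 0 beside Gsta4.

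Membrane glutathione transferases held the gene with the largest spread of all tested members. Mgst1, an enzyme of the endoplasmic reticulum and outer mitochondrial membrane, had 2.40, 7.81 and 16.2 FPKM, no rat lying near another (limma unadjusted p = 0.00664, adjusted p = 0.485). Mgst3, by contrast, was abundant and even, with 93.2, 133 and 105. Mgst3 minus Mgst1 was 4.79, 3.93 and 2.63 on the log2 scale. Mgst2, known for making leukotriene C4, had 0.509, 1.96 and 1.40.

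Methionine sulfoxide reductases repair oxidised methionine, and Park7 (DJ-1) is a redox-sensitive protein mutated in familial parkinsonism. Park7 had 64.9, 102 and 81.0 FPKM (chromosome 5, 167982439 to 168004724). Msrb1, a selenoprotein, had 31.5, 41.5 and 26.9 and was above Msrb2 (11.4, 14.5 and 9.90) and Msra (10.6, 12.1 and 9.15). These 4 genes were highest in rat 24-4. Msrb3 went against them, with 5.73, 1.65 and 4.55, lowest in rat 24-4. Its row overlaps Styxl2 on the other strand, which had a mean of 1.92 FPKM.

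Among the regulators, Nfe2l1 was higher than Nfe2l2 in every rat, and the ratio of Keap1 to Nfe2l2 differed between animals. Nfe2l1 (NRF1), known for controlling proteasome genes, had 75.0, 71.4 and 54.4 FPKM. Nfe2l2 had 10.6, 9.44 and 24.3 (chromosome 3, 62497571 to 62524996), so rat 33 stood 2.58-fold above rat 24-4. Keap1, which marks NRF2 for degradation, had 18.6, 24.2 and 17.8. Keap1 minus Nfe2l2 was 0.76, 1.27 and -0.43 on the log2 scale, positive in rats 12 and 24-4 and negative in rat 33. Of the quinone reductase genes, Nqo1, a classical NRF2 target, had 7.63, 11.9 and 15.3 and Nqo2 had 1.61, 2.45 and 3.25. Nqo1 exceeded Nqo2 by 1.86 ± 0.12 on the log2(FPKM + 1) scale, a mean difference that was 1.14 with a pseudocount of 5.

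NRF2 binds the antioxidant response element, whose core is TGACNNNGC. The element was searched on both strands in RefSeq windows of 300 bases around gene starts (250 before, 50 after, build GRCr8), where 69 of the 78 names matched. It was found for 20 names, or 29.0%, while 13.1% of all genes in that table had it. A match is a run of letters and does not show that NRF2 binds there. No match was found for Nqo1, Nqo2, Srxn1, Gclc, Gss, Txnrd2 or Txnrd3, nor in the other window of Txnrd1. A missing match covers only these 300 bases and this exact form of the core. It does not show that a gene lacks the element. The tested genes with a match had a median level of 4.68 (16 genes) and those without one 4.86 (41 genes), and their median SD was 0.32 and 0.31. Of the genes with a match, 9 of 16 were highest in rat 33, as were 18 of 41 without one. The windows printed here were chosen from those with a match. They show the regulator itself and both holders of TGACTCAGC, a fixed case of the same core. Of the enzymes that recycle thioredoxin or make glutathione, they show Txnrd1 and Gclm. Each is given in the direction of transcription with the match in capitals. Gstp1 and Prdx1 hold TGACTCAGC on opposite strands, and 0.415% of all windows hold it. The windows are chr3:81028950-81029249 (minus strand) for Nfe2l2, chr1:210769656-210769955 (minus) for Gstp1, chr5:135383656-135383955 (plus) for Prdx1, chr7:22755855-22756154 (minus) for Txnrd1 and chr2:213031885-213032184 (plus) for Gclm.
Nfe2l2: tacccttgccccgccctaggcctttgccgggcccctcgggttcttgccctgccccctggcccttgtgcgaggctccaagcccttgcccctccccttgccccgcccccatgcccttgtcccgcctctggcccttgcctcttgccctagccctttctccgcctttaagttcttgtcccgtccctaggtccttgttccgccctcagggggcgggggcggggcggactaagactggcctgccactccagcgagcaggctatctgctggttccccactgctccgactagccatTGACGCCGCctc
Gstp1: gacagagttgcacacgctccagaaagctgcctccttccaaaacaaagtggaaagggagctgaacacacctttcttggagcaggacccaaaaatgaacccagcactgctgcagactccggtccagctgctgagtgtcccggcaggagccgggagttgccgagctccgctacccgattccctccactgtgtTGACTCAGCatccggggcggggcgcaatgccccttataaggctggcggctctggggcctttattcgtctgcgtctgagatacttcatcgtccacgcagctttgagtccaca
Prdx1: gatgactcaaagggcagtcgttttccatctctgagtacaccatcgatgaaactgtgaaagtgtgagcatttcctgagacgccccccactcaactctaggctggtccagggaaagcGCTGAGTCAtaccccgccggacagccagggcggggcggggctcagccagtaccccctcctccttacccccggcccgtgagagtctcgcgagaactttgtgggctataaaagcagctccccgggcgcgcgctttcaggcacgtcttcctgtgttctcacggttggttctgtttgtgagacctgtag
Txnrd1: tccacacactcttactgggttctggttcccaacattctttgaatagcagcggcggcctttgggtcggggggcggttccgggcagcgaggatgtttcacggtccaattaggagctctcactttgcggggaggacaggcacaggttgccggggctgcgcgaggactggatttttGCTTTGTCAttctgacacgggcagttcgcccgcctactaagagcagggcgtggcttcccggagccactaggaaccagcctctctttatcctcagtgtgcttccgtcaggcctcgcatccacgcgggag
Gclm: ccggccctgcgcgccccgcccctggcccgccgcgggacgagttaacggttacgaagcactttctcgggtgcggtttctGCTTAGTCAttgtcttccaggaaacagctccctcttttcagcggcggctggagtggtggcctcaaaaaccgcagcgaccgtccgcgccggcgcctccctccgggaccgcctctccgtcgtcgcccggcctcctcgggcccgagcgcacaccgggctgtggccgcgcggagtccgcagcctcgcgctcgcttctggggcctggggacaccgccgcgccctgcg
The match begins 61 bases before the start of Gstp1, 135 before that of Prdx1, 78 before that of Txnrd1 and 172 before that of Gclm, and 38 bases after that of Nfe2l2. Among these 5 genes, Gstp1 was highest in rat 24-4 and the others in rat 33.

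Spread between rats was then set against that of all genes. The test, limma with an intercept per gene, asks whether a gene varied more than genes of its level do. At an adjusted p under 0.05, 0 of the 64 genes passed, where 0.102% of all genes tested did, and the smallest adjusted p was 0.442 for Sod3. Without rat 12, Sod3 passed with a limma adjusted p of 0.0373, and 0.752% of all genes tested did. At an unadjusted limma p under 0.05, 4 of the 64 passed, namely Sod3, Mgst1, Gsta4 and Cat, with 5.96% of all genes tested as background. All 4 peaked in rat 33. Without rat 33, Mgst1 alone of the 4 passed, beside Gpx3, Gstm6, Gstp1, Mgst2 and Msrb3, and without rat 12 Mgst1 did not pass while the other 3 did. The median SD was 0.32 for the 64 genes and 0.32 for all genes tested. A range of at least 2-fold between the highest and lowest rat was seen in 20 of the 64, against 30.0% of all genes tested.

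**Figure D2:**
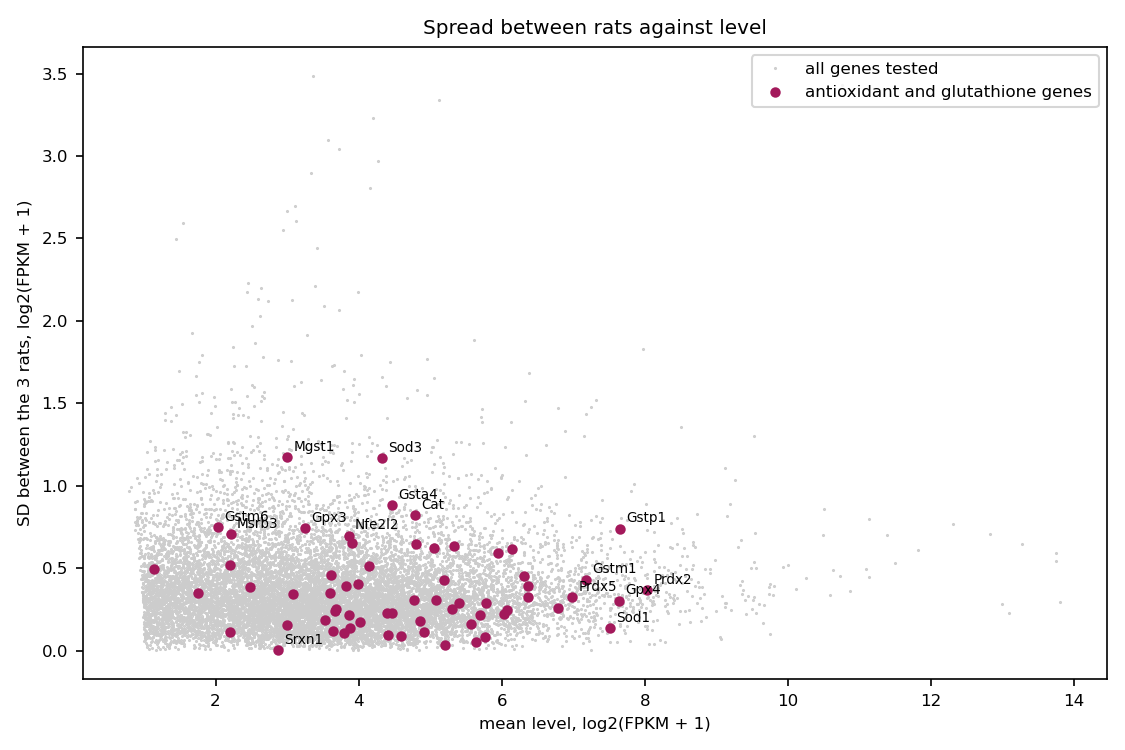
SD between the 3 rats against mean level, both on the log2(FPKM + 1) scale, with all 13754 genes tested in grey and the 64 antioxidant and glutathione genes in dark red. Mgst1 and Sod3 have the largest SD of the dark red points (1.17 each) and Srxn1 the smallest (0.0038).

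Rat 12 had the lowest value of the 3 in 39 of the 64 genes (60.9%), against 37.9% of all genes tested. Only 4 of the 64 were highest there (6.25%), against 23.8%. These shares describe 3 animals, and the difference between the genes and the background was not tested. Rat 24-4 was highest for 29 (34.2% of all genes tested) and rat 33 for 31 (42.0%). The 4 genes highest in rat 12 were Nfe2l1, Gclc, Sod2 and Msrb3. Rescaled without the mitochondrial genome, whose share was largest in rat 12, 31 of 65 were lowest in rat 12, against 27.0% of all genes tested, and 12 were highest there, against 35.2%. That scaling lifts the median level of all genes tested to 3.71.

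**Figure D3:**
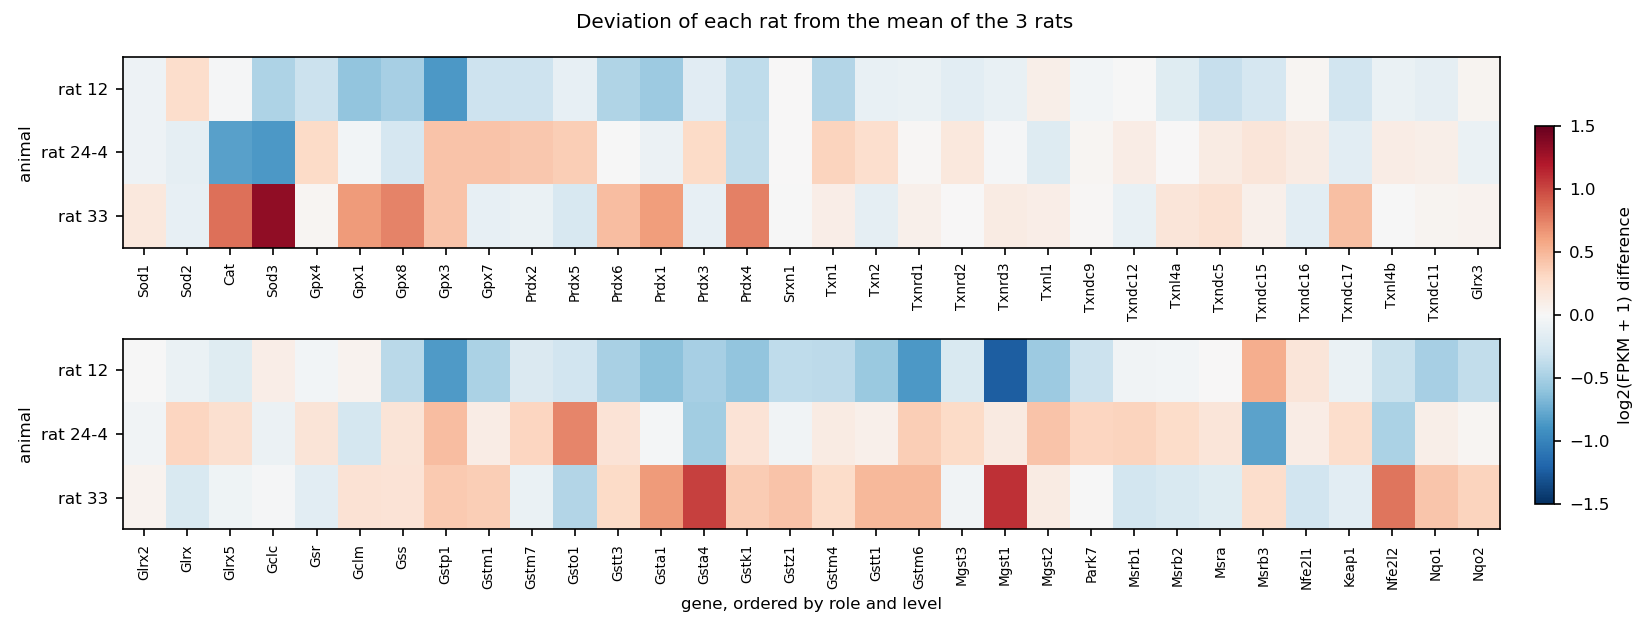
Deviation of each rat (rows) from the mean of the 3 rats on the log2(FPKM + 1) scale for the 64 tested genes (columns, by role and level), blue for lower and red for higher. Rat 12 is blue in most transferases and in all 5 glutathione peroxidases, and rat 33 is darkest red in Sod3, Mgst1 and Gsta4.

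The orders of rats divided the genes. The order of rat 33, rat 24-4 and rat 12 held for 22 of the 64, against 21.3% of all genes tested, and included Gpx1, Prdx1, Prdx6, Gstm1, Mgst1 and Nqo1. The order of rat 24-4, rat 33 and rat 12 held for 17 (16.6%), among them Prdx2, Gpx4, Gstp1, Txn1 and Park7. Sod1, Sod3, Cat, Gsta4, Nfe2l2 and Gclm were among 9 genes with the order of rat 33, rat 12 and rat 24-4 (20.7%).

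Markers of several cell types moved with these orders. Summed over their lists, astrocyte markers (8 of 8 found) had 571, 1312 and 2109 FPKM, microglial markers (7 of 7) had 115, 210 and 351, and oligodendrocyte markers (7 of 7) had 5385, 7006 and 12245. All 3 sums were lowest in rat 12 and highest in rat 33, like Gpx1, Prdx1, Prdx6 and Mgst1. Of the single markers, 5 of 8 astrocyte, 7 of 7 microglial and 7 of 7 oligodendrocyte genes were highest in rat 33. Choroid plexus markers (7 of 7, of which 5 had an adjusted limma p under 0.05) had 3347, 130 and 13247, the order seen in Sod3, Cat, Gsta4 and Nfe2l2. Markers of fibroblasts and meninges (7 of 7, Col1a2 listed at 0) had 64.8, 37.2 and 192, with 34.1, 7.55 and 97.6 from Igf2. Of the 6 tested, 4 were lowest in rat 24-4, while Lum and Col1a1 were lowest in rat 12. Rat 33 was highest for 5 of them and rat 12 for Slc6a13. Glutamatergic neuron markers (5 of 6) had 2034, 2141 and 1023, lowest in rat 33, as were 4 of the 5 single genes. Red blood cell markers (5 of 5) had 559, 84.4 and 391, an order shared by Sod2, Gclc and Msrb3. Sod2 was nearly equal in rats 24-4 and 33 (58.5 and 58.6). Among the markers, the low Slc4a1 had another order (0.0402, 0.0627 and 0.178). The part of these cell types in the levels above was not tested.

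**Figure D4:**
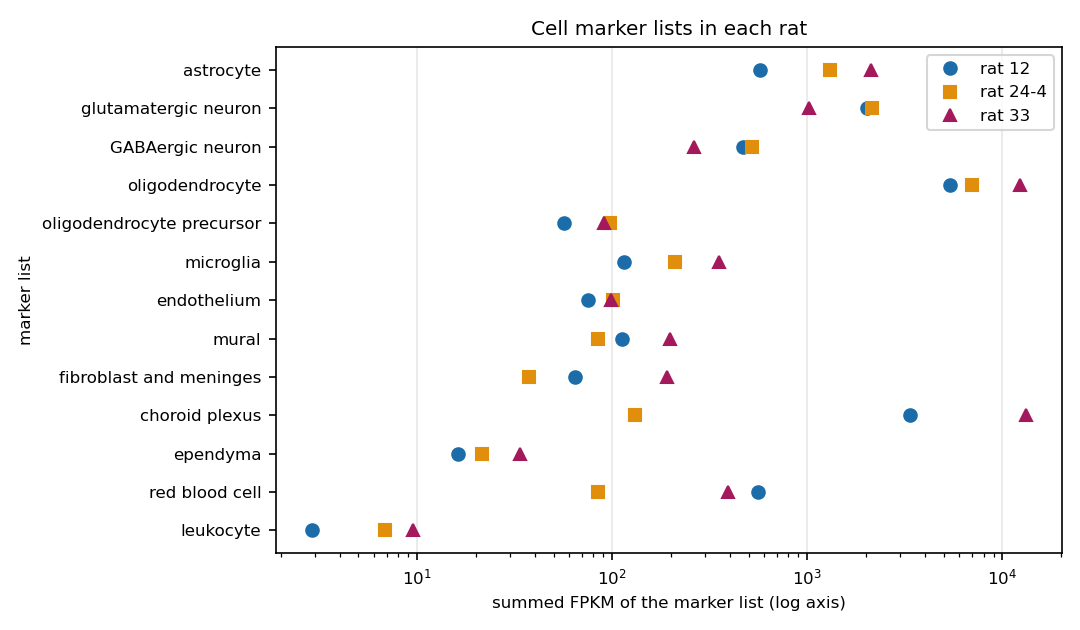
Summed FPKM of each cell marker list in each rat (circle rat 12, square rat 24-4, triangle rat 33), on a log axis. Sums of choroid plexus markers range from 130 to 13247. Those of astrocyte, microglial and oligodendrocyte markers are highest in rat 33 while those of neuronal markers are lowest there.

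Other genes of the pathway were followed in 6 lists, and 0 of their tested genes had an adjusted limma p under 0.05, with unadjusted passes given list by list. Of 16 further NRF2 targets, 15 were found and 12 tested. The ferritin heavy chain gene Fth1 led them with 1411, 2277 and 2039 FPKM, Slc7a11, the cystine importer that feeds glutathione synthesis, was lowest of those tested with 6.06, 4.81 and 9.86, and Hmox1, which breaks down heme, had the largest SD with 2.83, 6.96 and 13.6. The limma test gave Hmox1 an unadjusted p of 0.0194 (adjusted p = 0.680), and Ephx1, an epoxide hydrolase gene with 9.77, 13.1 and 28.2 FPKM, an unadjusted limma p of 0.0473 (adjusted p = 0.817). Under all 3 scalings 8 of the 12 were highest in rat 33, against 42.0%, 41.9% and 36.5% of all genes tested in the deposited, mitochondria-free and median-ratio scalings. Of the partners of NRF2, 10 of 11 were tested and none had an unadjusted p under 0.05. The autophagy adaptor gene Sqstm1 was highest (209, 257 and 161), Bach1, a repressor at the same elements, was lowest of those tested (1.24, 0.981 and 1.55), and Maff had the largest SD (0.436, 1.64 and 2.65).

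Of the genes listed around the supply of NADPH, which both reductases need, 11 of 12 tested were highest in rat 33, against 42.0% of all genes tested. Under the other scalings it was also 11 of 12, against 41.9% and 36.5%. The list is wider than direct producers of NADPH, since it takes in Me2, Nadk and Nadk2, each also highest in rat 33. Mthfd2, a mitochondrial folate enzyme gene, was lowest of those tested with 2.02, 2.53 and 3.88 FPKM, and Aldh1l1, also an astrocyte marker, had the largest SD with 4.81, 5.90 and 12.1. None of them had an unadjusted limma p under 0.05, nor did any of 13 tested genes of glutathione transport and turnover. Of those 13 the glyoxalase gene Glo1 was highest (73.3, 125 and 116), Anpep lowest (1.24, 1.31 and 2.96) and Oplah, which opens oxoproline, most spread (5.36, 9.60 and 16.4). Among 9 genes for making and carrying selenoproteins, Selenop, listed as Sepp1, led and had the largest SD (134, 149 and 318), and Pstk was lowest (3.61, 2.71 and 3.38). The 7 tested selenoprotein members (Gpx1, Gpx3, Gpx4, Txnrd1, Txnrd2, Txnrd3 and Msrb1) had a median level of 4.59, against 4.47 for the other 57 tested genes.

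Sources of oxidants gave 2 of 12 tested genes with an unadjusted limma p under 0.05, both subunits of the phagocyte NADPH oxidase, with 5.96% of all genes tested as background. Cybb, its catalytic subunit, had 0.655, 0.366 and 3.43 FPKM (limma unadjusted p = 0.0392, adjusted p = 0.805), with the largest SD and also the lowest mean of those tested. Ncf1, a cytosolic subunit, had 2.78, 5.81 and 11.7 (limma unadjusted p = 0.0346, adjusted p = 0.778). The monoamine oxidase gene Maob was highest, with 21.0, 43.1 and 36.4. Nox1, Nox3, Nox4, Duox1 and Duox2 lay under a mean FPKM of 1.

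Within rats, most of the listed pairs of related enzymes kept the same order. Of 25 listed pairs, 24 could be compared, since Gstm5 was listed at 0, and 21 had the same sign in all rats. The share among pairs of any other genes was not computed, so this count shows nothing particular to related enzymes. The smallest p that the exact sign-flip permutation test can give with 3 rats is 0.25 (two-sided), and these 21 pairs reached it (0.286 adjusted over the 24 pairs), so none could pass 0.05. Differences with a small SD included those of Prdx5 minus Prdx3 (1.68 ± 0.11) and Txnrd1 minus Txnrd2 (1.60 ± 0.12). Sod2 minus Sod3 kept its sign but had 2.43, 2.44 and 0.25, so in rat 33 the 2 genes were close. Nfe2l1 minus Nfe2l2 had 2.72, 2.79 and 1.13 in the same manner. The sign differed between rats for Prdx3 minus Prdx4, Keap1 minus Nfe2l2 and Gsta4 minus Gsto1, with rat 33 apart from the others in each.

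**Figure D5:**
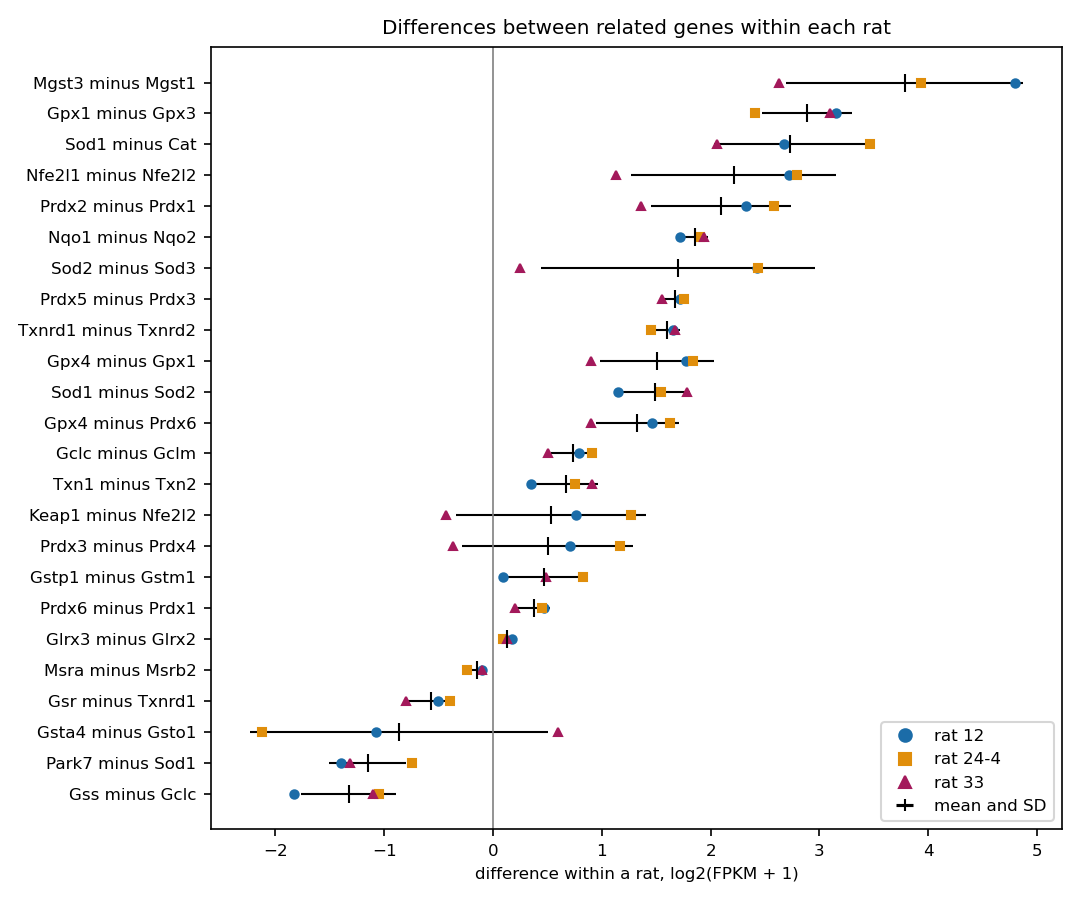
Differences between related genes within each rat on the log2(FPKM + 1) scale, 1 point per rat, with the mean as a tick and the SD as a bar, for 24 pairs. Points of 21 pairs lie on 1 side of 0, and in Prdx3 minus Prdx4, Keap1 minus Nfe2l2 and Gsta4 minus Gsto1 rat 33 lies across 0 from the other rats.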

How the data were processed

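Messenger RNA of motor cortex was sequenced, 1 library for each of 3 rats. Values were deposited as FPKM per gene, which the authors computed by script from normalized fragment counts, per the design text of the series. The submitters' processing notes name HISAT2 2.0.4, StringTie 1.3.0 and the build Rnor_6.0. What was done about strand, and which normalization, is not given in the sources used here. Since FPKM is a relative unit, abundant mitochondrial transcripts lower all other values.

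Levels were analysed as log2(FPKM + 1), and the 13754 genes averaging at least 1 FPKM over the rats were tested. For every gene limma 3.58.1 (R 4.3.3) fitted an intercept under a trended robust prior. The ratio of residual to prior variance was referred to the F distribution, one-sided, and Benjamini-Hochberg adjustment ran over the whole table at a threshold of 0.05. The script was tested on data simulated from its own fitted model. That check required only few false calls and recovery of outliers far beyond the ranges of the tested members. It does not give the power of the test at those ranges. Low values at loci of at most 400 bp gave the depth, since 92.8% to 93.2% of them were whole multiples of 1 fragment (tolerance 0.02). Other steps used Python 3.11.15 with scipy 1.17.1 and pandas 2.3.3. Alternatives changed the pseudocount, filter, scaling, prior, member list and rats.

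The members and lists were chosen with earlier results of these data known. The member rule was read as leaving out Txnip. Values in every rat are given for members with a mean of 50 FPKM or more, the highest and lowest of each role, the 10 largest and 5 smallest SDs, the listed pairs, Nfe2l2, Keap1 and Txnip. Of the tested genes of the other pathway lists, the highest, lowest and most spread are named, with any at an unadjusted p under 0.05. Cell marker lists are given as sums. 1 gene that this rule names is not reported here.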

Additional observations from a re-analysis of the deposited data

How the results depend on the processing

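No member passed the adjusted test under any alternative with all 3 rats. Some of these alternatives called 0 of all genes tested, so there the result says nothing particular to the members. They were the mitochondrial genome left out, a minimum mean of 0.1 FPKM, no filter and the prior not robust. Leaving out a rat gave 0 to 1 calls, the 1 being Sod3 without rat 12 (limma adjusted p = 0.0373). The prior was then estimated anew, and 0.752% of all genes tested were called. The number of members highest in rat 33 was 34 of 64 without rat 12, where only 2 rats remain to be highest. Without rat 24-4 it was 47 of 63, against 58.8% of all genes tested. The share of all genes without rat 12 is not given. The median level of the tested members was 4.79 with the mitochondrial genome left out, where the median of all genes tested was 3.71 in place of 3.47, and 4.77 with a pseudocount of 5. Median-ratio scaling, filters, the other prior, Txnip as a member, and leaving out Txndc and Txnl rows or (chosen after seeing the data) rows overlapping an expressed gene changed no adjusted call, and no pair's mean difference changed sign. Unadjusted, Cat did not pass with no filter or without rat 24-4. Counting Txnip as a member raised the unadjusted passes from 4 to 5, with 5.96% of all genes tested as background. Without rat 24-4 the mean difference was -0.24 for Gsta4 minus Gsto1, 0.29 for Gstp1 minus Gstm1, 0.16 for Keap1 minus Nfe2l2 and 0.17 for Prdx3 minus Prdx4. Without rat 33 it was -1.60, 1.02 and 0.94 for Gsta4 minus Gsto1, Keap1 minus Nfe2l2 and Prdx3 minus Prdx4. The count of members lowest in rat 12, added after seeing the data, was 34 of 64 with median-ratio scaling (31.0% of all genes tested). No paired analysis was possible because there is only 1 group. Depth limits the lowest members, since 3 fragments at a locus 1 kb long equal 0.174 to 0.231 FPKM.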
